A study of Homo sapiens with 8 samples.

Results

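The mRNAs described here encode 10 abundant proteins that the liver secretes into plasma, ALB, AFP, APOB, APOA1, APOA2, APOH, FGA, FGB, FGG, and SERPINA1. They were chosen by name, and each name matched 1 of the 57756 genes listed in the deposited tables. RNA bound to ribosomal protein S6 (RPS6), a component of the small ribosomal subunit, was pulled down by RNA immunoprecipitation (RIP) with an RPS6 antibody and sequenced beside the input, which is RNA of the same lysate without pull-down. The 4 cell lines were Hep3B from hepatocellular carcinoma, HCT116 from colon cancer, DU145 from prostate cancer, and SW1990 from pancreatic cancer, all without treatment. Each line had 1 input and 1 RIP library, so a ratio within a line has no replicate, and no library of a control antibody was analysed here. The labels disagree on the liver line, since the titles say 3B, the study's methods say Hep3B, and the field for the cell line says Huh7. The name Hep3B is used throughout.

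Albumin (ALB) is the main carrier protein of adult plasma, and alpha-fetoprotein (AFP) is its fetal relative, which many hepatocellular carcinomas make again. Apolipoprotein B (APOB) is the scaffold of very-low-density lipoprotein, APOA1 and APOA2 are the major proteins of high-density lipoprotein, and APOH binds phospholipids. FGA, FGB, and FGG encode the chains of fibrinogen, the precursor of the fibrin clot, and SERPINA1 encodes alpha-1-antitrypsin, an inhibitor of neutrophil elastase. Messages of secreted proteins are translated by ribosomes at the endoplasmic reticulum (ER), and hepatocytes transcribe these genes with factors such as HNF4A, C/EBP, and FOXA proteins.

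The genes lie in a few neighbourhoods of the hg19 genome. ALB (chr4:74262830-74287129) and AFP (chr4:74296854-74321891) are adjacent, and FGB (chr4:155484107-155492238), FGA (chr4:155504277-155511918), and FGG (chr4:155525285-155534119) form a cluster farther along the same chromosome. APOB lies at chr2:21224300-21266945, APOH at chr17:64208150-64252643, and SERPINA1 at chr14:94843083-94857030. The locus given for APOA1 (chr11:116706466-116969153) is shared by 7 listed genes and that of APOA2 (chr1:161185023-161193421) by 3. Whether the counting used the strand is not given in the sources used here, so the division of reads between these overlapping genes is uncertain.

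Promoter sequence is shown because the 10 mRNAs shared a pattern of levels across the lines, high in Hep3B and low elsewhere. RefSeq promoter windows of GRCh38.p14, from 250 bases before to 50 bases after the start of a gene, were matched for 8 of the 10 genes. APOB and APOA1 had no entry. The letters GTTAAT, the core of an HNF1 site, were searched on both strands and were found in 5 of the 8 windows, against 15 of 68 windows of other secreted liver proteins (22.1%), 2 of 24 windows of intracellular hepatocyte proteins, and 6.88% of all 35116 windows. The 150 bases before the start of those 5 genes follow, 5′ to 3′ on the strand of the gene, with GTTAAT, or ATTAAC where it lies on the opposite strand, in capitals. TATAAA on the strand of the gene is also in capitals.
ALB (chr4:73404137-73404286, plus strand): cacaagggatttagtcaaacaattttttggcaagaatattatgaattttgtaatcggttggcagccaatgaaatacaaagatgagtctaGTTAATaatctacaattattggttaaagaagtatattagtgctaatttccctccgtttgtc
AFP (chr4:73436071-73436220, plus strand): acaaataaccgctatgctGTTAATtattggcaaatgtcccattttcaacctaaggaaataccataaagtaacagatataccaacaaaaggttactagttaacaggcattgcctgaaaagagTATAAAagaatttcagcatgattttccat
APOH (chr17:66229416-66229565, minus strand): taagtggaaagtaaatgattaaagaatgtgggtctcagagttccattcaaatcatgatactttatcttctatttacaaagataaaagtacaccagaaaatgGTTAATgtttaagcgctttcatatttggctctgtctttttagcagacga
FGA (chr4:154590743-154590892, minus strand): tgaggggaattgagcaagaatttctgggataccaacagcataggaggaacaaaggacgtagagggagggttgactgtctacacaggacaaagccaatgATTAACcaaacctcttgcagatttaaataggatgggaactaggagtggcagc
FGB (chr4:154562830-154562979, plus strand): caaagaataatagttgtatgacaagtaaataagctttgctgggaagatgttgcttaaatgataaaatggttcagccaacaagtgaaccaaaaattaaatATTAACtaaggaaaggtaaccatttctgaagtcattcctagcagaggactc
The first base of the match lay 61 bases before the start in ALB, 132 in AFP, 49 in APOH, 52 in FGA, and 51 in FGB, and APOH held a second match 210 bases before its start, outside the printed stretch. TATAAA was found in AFP alone of the 8, 29 bases before the start, and in 7.33% of all windows. Other letters searched on both strands were CAAAGTC, part of an HNF4 site, in 0 of 8 windows (3.37% of all), TTGCAA, part of a C/EBP site, in 2 of 8 (5.51%), and TGTTTNC, part of a FOXA site, in 3 of 8 (18.0%). A match of letters is a description of these windows and does not show binding.

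The libraries held between 34630231 and 54209591 fragments. Hepatocyte markers were checked against the label of the Hep3B pair. TTR, APOC3, AHSG, FABP1, ASGR1, and TF lay between 32.7 and 665 FPKM (fragments per kilobase and per 1000000 mapped fragments) in the Hep3B input. In the other inputs the highest of these 6 markers reached 0.441 FPKM. Defining markers of the other tissues were often missing from their own lines. Only CDX2 of 8 colon markers reached 1 FPKM in the HCT116 input, with 6.25 FPKM. In the Hep3B and DU145 inputs 1 colon marker did so, and 3 did in SW1990. Their summed FPKM was 7.04 in HCT116, 152 in Hep3B, and 95.4 in SW1990. Of 8 prostate markers, 2 reached 1 FPKM in the DU145 input, beside 2 in Hep3B, 3 in HCT116, and 4 in SW1990. KLK2 and KLK3 were listed at 0 in the DU145 input. Neither list sets its own line apart. Of 8 pancreatic duct markers, 4 reached 1 FPKM in the SW1990 input, led by KRT19 with 229 FPKM, but 4 did so in the Hep3B and HCT116 inputs and 5 in the DU145 input, and KRT19 was higher in HCT116 (570 FPKM), so this list does not set SW1990 apart.

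All 10 mRNAs were abundant in Hep3B cells and low or listed at 0 in the other lines, apart from SERPINA1 in DU145 cells. In bulk RNA, fewer expressing cells and less RNA per cell cannot be told apart. Levels were set across 2 deposited tables, 1 with Hep3B and HCT116 and 1 with DU145 and SW1990. Whether the 2 tables differ in processing was not tested. The lowest level in the Hep3B input was 55.2 FPKM (FGA) and the highest 9041 FPKM (APOA2), with a median of 298 FPKM. With 1 FPKM added to each value, all 10 inputs of Hep3B were at least 10-fold above the highest of the other 3 inputs, which 1.34% of the 20367 genes compared also were. The margin ran from 32.2-fold for SERPINA1 to 6258-fold for APOA2. The 10 mRNAs together took up 1.82% of the fragments of the Hep3B input and 2.45% of those of the Hep3B RIP library, and between 0.000208% and 0.00433% in the other 6 libraries.

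**Figure D1:**
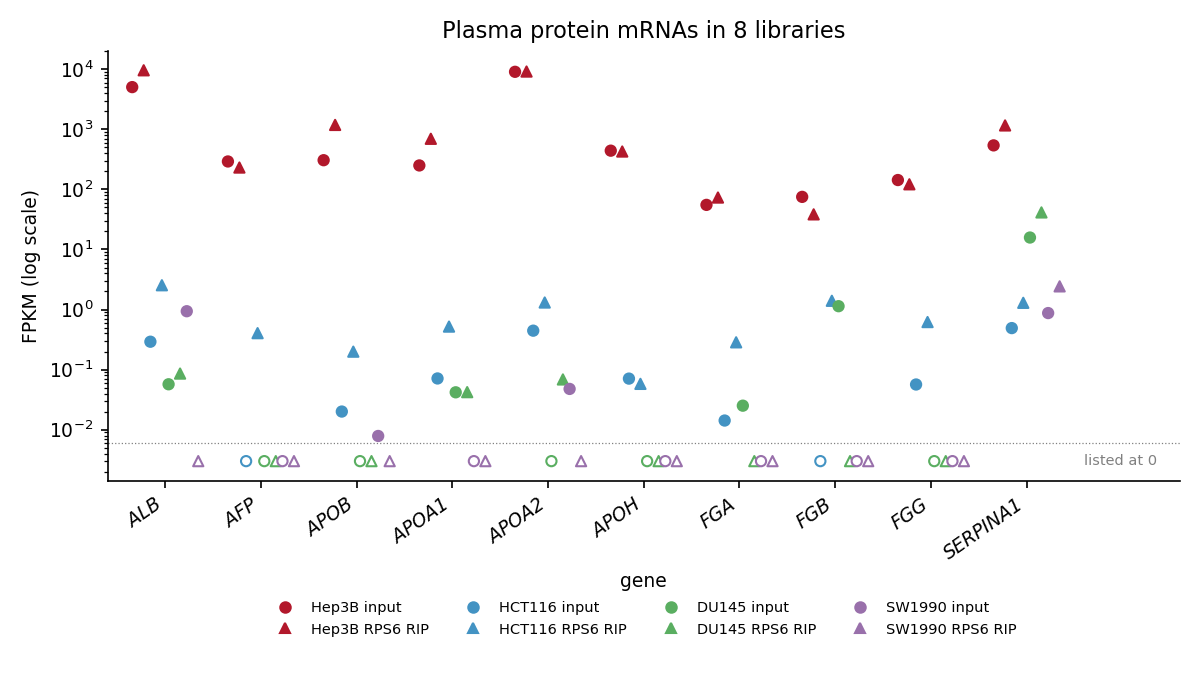
The FPKM of each of the 10 genes (log scale) is plotted in the 8 libraries, with circles for input, triangles for RPS6 RIP, a colour for each cell line, and open symbols below the dotted line for genes listed at 0. Every Hep3B point lies at 38.3 FPKM or above, and outside Hep3B the only points above 10 FPKM are the SERPINA1 pair of DU145 cells, at 15.8 and 41.3 FPKM.

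The carrier proteins differed widely in level. ALB had 5030 FPKM in the Hep3B input and 9582 in the RIP library, where it ranked first of all listed genes. Elsewhere its input and RIP values were 0.291 and 2.54 FPKM for HCT116, 0.0571 and 0.0859 for DU145, and 0.938 and 0 for SW1990. The RIP value was therefore the higher of the pair in 3 lines and the lower in SW1990, where the values rest on 16 and 0 fragments. AFP had 291 FPKM in the Hep3B input and 231 in the RIP library, 0.404 in the HCT116 RIP library, and was listed at 0 in the other 5. On the FPKM scale, which is per length, ALB over AFP was 17.3 before and 41.5 after pull-down in Hep3B cells.

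Among apolipoproteins, APOA2 stood far above the others. It had 9041 FPKM in the Hep3B input, where it ranked 8th of all genes, and 9132 in the RIP library, where it ranked 2nd after ALB. In the other lines it reached 1.31 FPKM in the HCT116 RIP library and 0.445 in the HCT116 input, and at most 0.0686 elsewhere. APOB had 306 FPKM in the Hep3B input and 1180 in the RIP library, 0.0201 and 0.199 in HCT116, and no more than 1 fragment in any DU145 or SW1990 library. APOA1 had 250 FPKM in the Hep3B input and 694 in the RIP library, 0.0713 and 0.520 in HCT116, 0.0419 and 0.0422 in DU145, and was listed at 0 in both SW1990 libraries. APOH was nearly even, with 440 FPKM in the Hep3B input and 426 in the RIP library, 0.0709 and 0.0579 in HCT116, and 0 in the other 4 libraries. On the same scale APOA2 over APOA1 was 36.2 before and 13.2 after pull-down.

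The chains of fibrinogen, which assemble in equal numbers in the protein, differed in mRNA level and in the size of their ratio. FGG had 143 FPKM in the Hep3B input and 121 in the RIP library, FGA 55.2 and 73.1, and FGB 75.0 and 38.3. FGB over FGA was 1.36 before and 0.525 after pull-down, so the order of these chains turned between the libraries on the FPKM scale. FGG over FGA was 2.59 before and 1.66 after it, and FGG stayed the highest chain in both. FGB also gave 81 fragments in the DU145 input (1.14 FPKM) and 0 in the DU145 RIP library, which with a floor of 3 fragments put the RIP at least 18.3-fold lower per 1000000 fragments. FGA had 4 fragments in that input and FGG 0.

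SERPINA1 was the only one of the 10 measured well outside Hep3B. It had 539 FPKM in the Hep3B input and 1158 in the RIP library, and in the other lines 0.491 and 1.29 (HCT116), 15.8 and 41.3 (DU145), and 0.873 and 2.43 (SW1990). Its RIP value exceeded the input in all 4 lines. The DU145 values rest on 1645 input and 1587 RIP fragments, and those of SW1990 on 59 and 122.

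Traces of all 10 mRNAs were present in the HCT116 RIP library. It held 427 of their fragments, against 119 in the HCT116 input and 122 in the SW1990 RIP library, where all 122 were SERPINA1. ALB contributed 130 of the 427, or between 2.57 and 3.62 fragments per 1000000 (95% Wilson interval), above the interval of 0.425 to 0.888 in the HCT116 input. These intervals and the floor cover counting error only, since fragments are not independent molecules. The value was higher in RIP than in input for 9 of the 10 genes in HCT116, with APOH as the exception (2 input and 1 RIP fragments). As a percentage of the Hep3B RIP value, the HCT116 RIP value lay between 0.0136% (APOH) and 3.64% (FGB), with a median of 0.0933%. Of these hepatocyte markers, TF reached 1.63 FPKM in the HCT116 RIP library, and FABP1, which had 0.811 FPKM in the Hep3B RIP library, was listed at 0. AHSG, with 2001 FPKM in the Hep3B RIP library, was nearly even in HCT116, with 0.0645 FPKM in input and 0.0679 in RIP. APOC3 (0 to 0.678 FPKM), TTR (0 to 0.408 FPKM), and ASGR1 (0.275 to 0.481 FPKM) were higher in RIP there. The part of these traces in the results over all lines is given with the fits, and their source was not tested.

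In Hep3B cells the 10 mRNAs did not move together between input and RIP. The log2 ratio of (RIP FPKM + 1) to (input FPKM + 1), a scale that compresses the change of low genes, ran from -0.95 for FGB to 1.95 for APOB, with a median of 0.21. The median of the 17120 genes with at least 1 FPKM in either library was 0.20, and the middle 50% of them lay between -0.67 and 0.97. APOB (3.86-fold), APOA1 (2.78-fold), and SERPINA1 (2.15-fold) were at least 2-fold higher in RIP, 3 of 10 where 24.1% of all genes were. None of the 10 was at least 2-fold lower, where 17.8% of all genes were. ALB followed with 1.90-fold, FGA, APOA2, APOH, FGG, and AFP lay between 0.792-fold and 1.32-fold, and FGB was lowest with 0.511-fold.

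The order changed in part when estimated counts were compared in place of FPKM. On TMM-normalized counts per 1000000 (CPM), the median of the 10 was -0.14 and that of all genes -0.04, so the sign of the median depends on the unit. APOA1 (2.95-fold) and SERPINA1 (2.24-fold) remained at least 2-fold higher, 2 of 10 against 20.8% of all genes. FGB (0.341-fold) and FGG (0.475-fold) were at least 2-fold lower, 2 of 10 against 18.4%. FGA was at 0.972-fold, so all 3 fibrinogen chains were below 1 on this scale, while FGA was above 1 in FPKM. APOB moved most, from 3.86-fold in FPKM to 1.92-fold in CPM. The count per unit of FPKM, which scales with the transcript length that the authors' software used, was 0.485 times as large for APOB in the RIP as in the input library, 0.544 times for FGG, and 0.648 times for FGB. For all genes the median of this quotient was 0.840 and 90% of genes lay between 0.502 and 1.28, while APOA1 (1.03) and SERPINA1 (1.02) were near 1. Counting error was small beside these differences, since the ratio of shares of fragments had a 95% interval of 1.62 to 1.64 for APOB and of 0.268 to 0.310 for FGB.

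**Figure D2:**
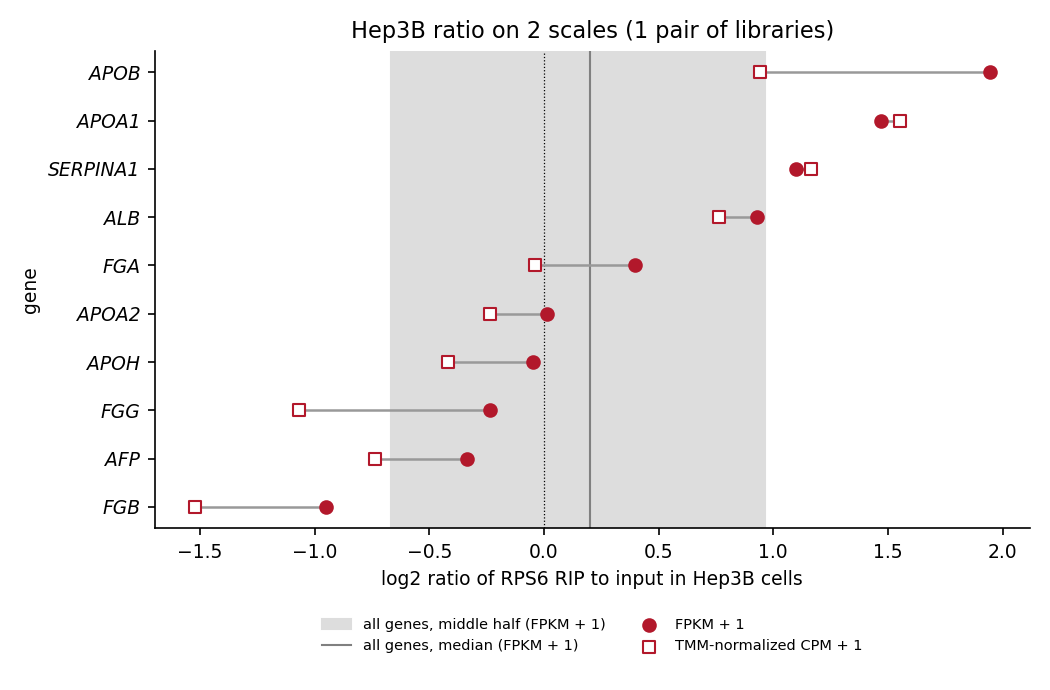
For each of the 10 genes the log2 ratio of RPS6 RIP to input in the Hep3B pair is plotted on the FPKM + 1 scale (filled circles) and on the TMM-normalized CPM + 1 scale (open squares), beside the median (grey line) and the middle 50% (grey band) of all genes on the FPKM + 1 scale. Circles of APOB, APOA1, and SERPINA1 lie to the right of the band and that of FGB to its left. The band does not apply to the squares, whose own middle 50% runs from -0.74 to 0.81, with APOB, APOA1, and SERPINA1 above it and FGB and FGG below.

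Whether RIP and input differed across the lines was tested with edgeR's quasi-likelihood test, with the cell line as a block and adjustment over all 19921 genes tested. The 10 genes all had the required mean of 10 counts, 6 of them only through the Hep3B pair, since 4 had it over the other 3 lines alone. SERPINA1 rose by 1.13 on the log2 scale (standard error 0.21, adjusted p = 0.00102) and was higher in RIP in 4 of 4 lines. APOA1 rose by 1.64 (standard error 0.36, adjusted p = 0.00399), higher in Hep3B and HCT116, while DU145 and SW1990 together held 3 of its fragments. It is among the 6 genes that had enough counts only through Hep3B, and could not be tested without that pair. APOB rose by 1.54 (standard error 0.53, adjusted p = 0.0358), higher in Hep3B and HCT116 and resting on 1 fragment in the remaining 4 libraries. These 3 of 10 stand beside 26.5% of all genes that were called higher, and 0 of 10 were called lower beside 24.9%. At an unadjusted p under 0.05 the counts were also 3 and 0, beside 28.9% and 28.1% of all genes, and DESeq2 and limma called 0 lower as well. DESeq2 called 2 higher, without APOB (0.50, adjusted p = 0.873), and limma on log2(FPKM + 1) called SERPINA1 alone, with adjusted p = 0.201 for APOA1 and 0.248 for APOB. p-values rest on the spread between cell lines, each measured once. For the 6 genes with enough counts only through Hep3B, that spread is hardly measured. Their p-values lean on the variance that the test borrows from other genes.

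The other 7 did not pass the test. Their log2 changes were 0.79 for ALB (standard error 0.73, adjusted p = 0.390), 0.58 for FGA, 0.28 for APOA2, 0.14 for AFP, -0.01 for FGG, -0.43 for APOH, and -1.13 for FGB (standard error 1.12, adjusted p = 0.427). Counts outside Hep3B were at trace level for these genes. Without the HCT116 pair the values of ALB, FGA, APOA2, and AFP were below 0, at -0.11, -0.24, -0.25, and -0.76, APOB was no longer called (0.79, adjusted p = 0.331), and FGB was called lower (-2.42, adjusted p = 0.0196). Without the DU145 pair, which held 81 input and 0 RIP fragments of FGB, its value was 0.01 (adjusted p = 0.993). Without the SW1990 pair ALB was called higher (1.46, adjusted p = 0.0356). Without the Hep3B pair 4 of the 10 could be tested, and SERPINA1 alone was called (1.04, adjusted p = 0.00677).

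**Figure D3:**
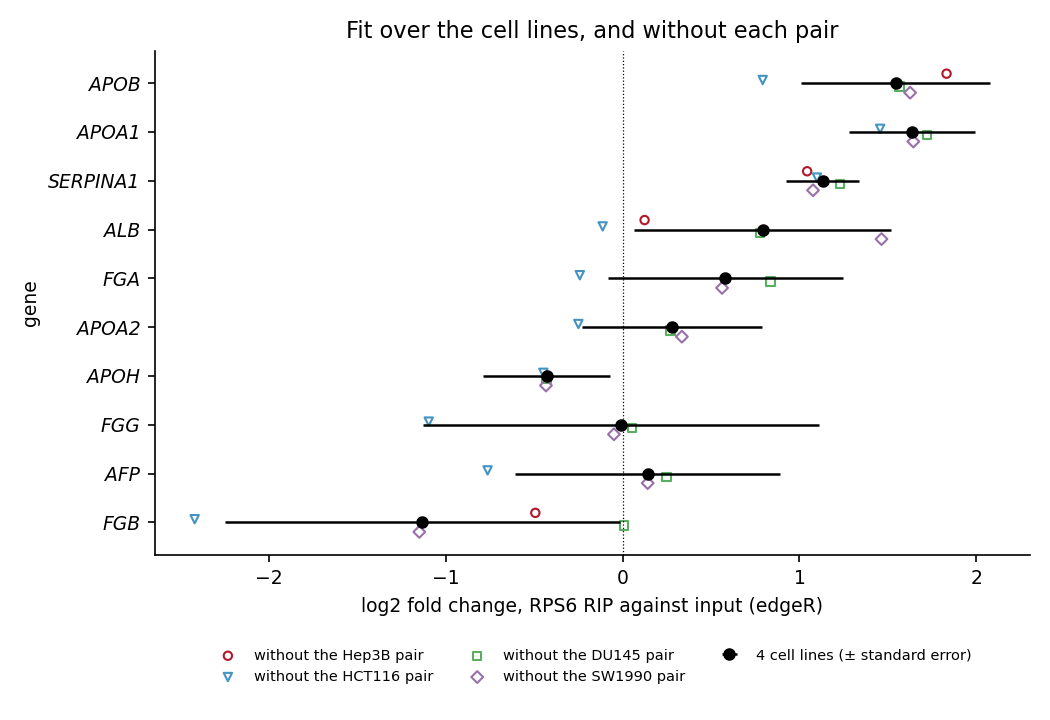
The log2 fold change of RPS6 RIP against input from edgeR is plotted for each of the 10 genes over the 4 cell lines (black circles, bars show ± 1 standard error) and with each pair left out (open symbols). SERPINA1 and APOA1 lie between 1.04 and 1.72 in every fit drawn, while ALB, FGA, APOA2, and AFP cross 0 without the HCT116 pair and FGB lies at -2.42 without it.

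The Hep3B ratio was also set against the ratios of the other 3 lines in an interaction term. No member was called, and neither was any of the 19921 genes (0% called in either direction). DESeq2 and limma called no member either. At an unadjusted p under 0.05, 3.25% of all genes were higher and 4.94% lower in Hep3B. AFP (log2 difference -6.49, adjusted p = 0.387) and FGG (-4.17, adjusted p = 0.405) were the 2 members past that limit with edgeR. With limma on log2(FPKM + 1) the 2 members past that limit were instead higher in Hep3B, APOB (1.87, adjusted p = 0.460) and APOA1 (1.30, adjusted p = 0.519). In edgeR these 2 genes were at -1.65 and -0.60, so their direction depends on the tool and scale. AFP and FGG were below 0 in limma too (-0.50 and -0.44). For AFP and FGG, the counts outside Hep3B were almost wholly those of the HCT116 RIP library, 18 AFP and 26 FGG fragments against 0 and 4 in the HCT116 input. Neither the AFP nor the FGG difference could be estimated without the HCT116 pair. In that fit FGB was the only member past the limit, and it was higher in Hep3B (6.08, adjusted p = 0.398). SERPINA1, the member with the most counts outside Hep3B, had a difference of -0.00 with a standard error of 0.36.

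Other secreted liver proteins gave a wider view of the same pathway in Hep3B cells. Of 92 listed genes, 71 had at least 1 FPKM in either Hep3B library. Their median log2 ratio was 0.84 on the FPKM scale and 0.66 on the CPM scale, and 30 of the 71 (42.3%) were at least 2-fold higher, beside 24.1% of all genes. Over the 4 lines, 18 of the 74 tested were called higher and 4 lower, and without the HCT116 pair 19 and 4. The share called higher (24.3%) was near that of all genes (26.5%), and the share called lower was 5.41% beside 24.9%. The 10 mRNAs had the lower median in Hep3B, 0.21, and no test of that difference was made.

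Among other lipoprotein genes, 4 of 10 tested rose (40%, beside 26.5% of all genes) and 1 fell (10%, beside 24.9%). APOE, a ligand of lipoprotein receptors, rose from 536 to 1796 FPKM in Hep3B (log2 change over the lines 1.51, adjusted p = 0.00342). PLTP (1.66) and ANGPTL4 (1.45) were also called higher. In Hep3B, ANGPTL4 was low and not higher in RIP (0.975 and 0.669 FPKM). It was higher in RIP in HCT116 (4.16 to 19.7 FPKM), DU145 (9.14 to 32.9 FPKM), and SW1990 (0.683 to 3.51 FPKM). APOC1 with 345 and 334 FPKM and APOC2 with 44.9 and 14.6 FPKM were not called.

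Among other coagulation genes, 4 of 15 rose (26.7%) and 1 fell (6.67%), beside 26.5% and 24.9% of all genes. Prothrombin, F2, rose most, from 19.4 to 76.5 FPKM in Hep3B (2.11, adjusted p = 0.00368), followed by VTN, encoding vitronectin, from 166 to 589 FPKM (1.71), and F10 from 10.0 to 35.1 FPKM (1.54). Outside Hep3B, F2 reached at most 0.144 FPKM. PROS1, encoding the anticoagulant protein S, fell (-0.91, adjusted p = 0.00326), with 34.9 and 30.1 FPKM in Hep3B. FGL1, a relative of fibrinogen with 116 and 162 FPKM, was not called.

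Of 18 other protease inhibitors tested, 5 were called higher (27.8%), near the 26.5% of all genes. None was called lower, beside 24.9% of all genes. SERPINA3, encoding alpha-1-antichymotrypsin, rose by 1.65, A2M by 1.33, and SERPINF1 by 1.08 on the log2 scale. A2M had 43.5 and 243 FPKM in Hep3B. It was lower in RIP in HCT116 (0.633 to 0.313 FPKM) and DU145 (1.10 to 0.999 FPKM), and higher in SW1990 (0.167 to 0.307 FPKM). The most abundant, AHSG (665 to 2001 FPKM), AMBP (435 to 1158 FPKM), and ITIH2 (226 to 438 FPKM), were higher in the Hep3B RIP library but did not pass the test. Of 9 other carriers only IGFALS (11.1%), which binds insulin-like growth factors in plasma, was called higher (2.53, adjusted p = 0.00496). GC with 981 and 1196 FPKM, TF with 611 and 1459 FPKM, and RBP4 with 431 and 547 FPKM were not.

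Of 17 complement genes tested, 3 were called higher (17.6%) and 1 lower (5.88%), beside 26.5% and 24.9% of all genes. C3, the central component, rose from 218 to 895 FPKM in Hep3B (2.68, adjusted p = 0.000661), and C1R (1.14) and CFB (1.03) were also called higher. CFI, the protease that inactivates C3b, fell from 70.6 to 31.1 FPKM (-2.30, adjusted p = 0.00454), and C4BPB (28.9 and 26.2 FPKM) was not called. Of 5 acute phase genes, 1 was called higher and 1 lower (20% each). AGT, encoding angiotensinogen, rose from 153 to 458 FPKM in Hep3B (1.36, adjusted p = 0.0194). It reached at most 0.0230 FPKM outside Hep3B, and was lower in RIP in DU145 (0.0220 to 0.0138 FPKM). SAA4, with 8.11 and 0.298 FPKM in Hep3B, was called lower (-4.54, adjusted p = 0.0427). SAA4 was listed at 0 in the 6 libraries outside Hep3B. Its call rests on 1 pair, so its p-value measures no spread between lines. Without the HCT116 pair 0 acute phase genes were called lower. ORM1 (112 and 163 FPKM) and ORM2 (50.2 and 75.5 FPKM) were not called. Intracellular hepatocyte genes had 6 of 22 called higher (27.3%) and 1 lower (4.55%). The gene called lower was FABP1, a fatty acid binding protein, with 66.2 and 0.811 FPKM in Hep3B (-4.94, adjusted p = 0.00199). FABP1 was also listed at 0 in the 6 other libraries. Its call rests on the Hep3B pair, and its p-value measures no spread between lines either. Without the HCT116 pair 5 and 1 were called.

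**Figure D4:**
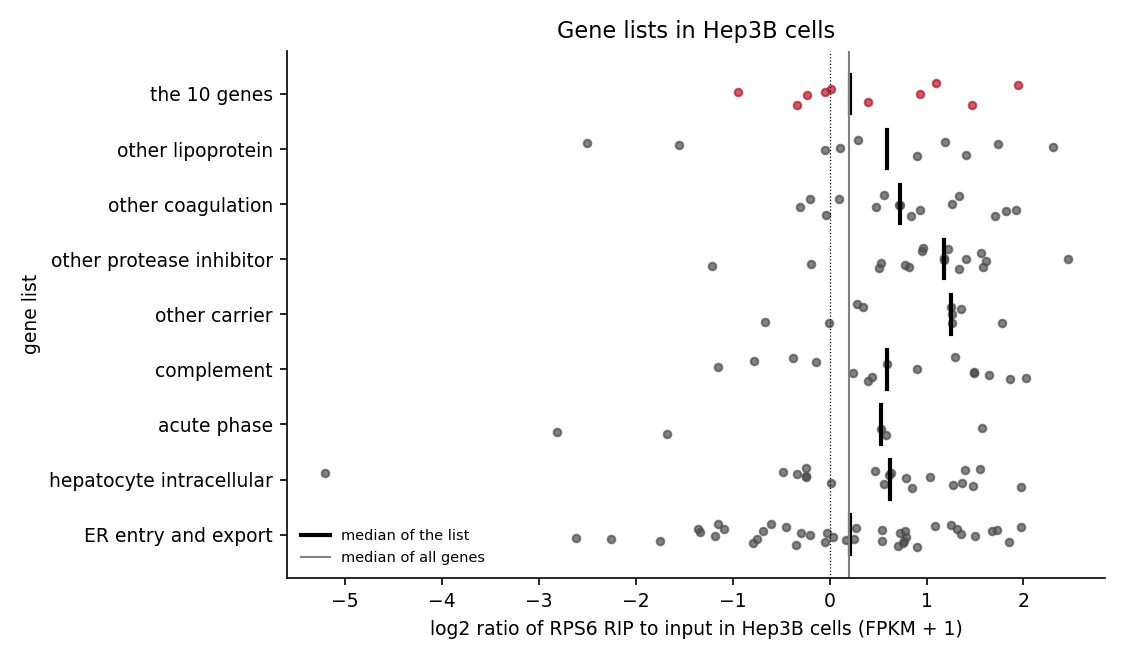
Each point is a gene with at least 1 FPKM in either Hep3B library, placed by its log2 ratio of RPS6 RIP to input (FPKM + 1), with the gene lists as rows, black bars for the median of each list, and a grey line for the median of all genes. The 10 genes (red) have a median of 0.21, at the line for all genes (0.20), while the other secreted lists have medians between 0.53 and 1.25.

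Genes of ER entry and export, the machinery that handles secreted proteins, were mixed. Of 40 tested, 11 were called higher (27.5%, beside 26.5% of all genes) and 17 lower (42.5%, beside 24.9%). Without the HCT116 pair the counts were 9 and 17. The largest increases were in the coat proteins SEC24C (2.10) and SEC23B (1.68) and in P4HB (1.55), a protein disulfide isomerase, and the largest decreases in the signal peptidase subunits SEC11C (-3.22) and SEC11A (-2.75) and in the translocon subunit SEC61G (-2.83). These 6 genes were chosen for their size after their values were seen.

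Transcription factors of liver genes were measured in the same libraries, and 8 of 15 tested were called higher and none lower. The share called higher was 53.3%, beside 26.5% of all genes, and 24.9% of all genes were called lower. HNF4A had 53.2 FPKM in the Hep3B input and 143 in RIP (log2 change over the lines 1.53, adjusted p = 0.00134), CEBPA 18.1 and 87.3 (1.71, adjusted p = 0.00843), and FOXA2 15.9 and 40.1 (1.10, adjusted p = 0.0160). Each of these 3 factors was higher in RIP in 3 of the 4 lines. HNF4A was listed at 0 in both DU145 libraries. CEBPA was lower in RIP in DU145 (0.941 to 0.590 FPKM), and FOXA2 was slightly lower in SW1990 (2.41 to 2.30 FPKM). ZHX2 and ZBTB20, known as repressors of AFP after birth, had 5.04 and 7.04 FPKM in the Hep3B input. ZHX2 rose by 0.97 over the lines (adjusted p = 0.00522), and ZBTB20 was not called (0.30, adjusted p = 0.401).

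The pattern of the 10 mRNAs over the 8 libraries was shared by other genes with little or no signal outside Hep3B. Of 7702 genes outside the lists with at least 10 FPKM in the Hep3B input, 64 correlated with the mean log2(FPKM + 1) of the 10 with a Pearson r above 0.99. The 5 highest were PCDH9 (r = 0.9987), FLRT2, PHYHIPL, AGTR1, and AC092757.1. PCDH9, a protocadherin, had 13.5 FPKM in the Hep3B input and 16.3 in RIP, and AGTR1, the angiotensin II receptor, had 70.2 and 96.2 FPKM. Both were at 0 in the DU145 and SW1990 libraries. The 8 libraries fall into a Hep3B pair and the rest, and r describes that split.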

How the data were processed

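RNA from RPS6 RIP and input was sequenced in 4 cell lines, 8 libraries in all. Per the labels and the paper's methods, the authors aligned reads to the human genome version 19 with TopHat2 2.0.9 after CASAVA 1.8, as the submitters' processing notes name them. The counting tool and annotation are not given in the sources used here. The authors deposited FPKM and estimated counts, the latter scaled by 1 factor per library. Tables of the authors' own fold changes and p-values per line were not used. Division by a common step made between 85.4% and 92.3% of the counts above 0 whole (within 0.02 of a whole number), and gave the fragments used for depth, 95% intervals, and a floor of 3.

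Estimated counts were rounded and tested with edgeR 4.0.16 (R 4.3.3; TMM, mean of at least 10 counts, cell line as a block, Benjamini-Hochberg threshold 0.05). Each RIP comes from the lysate of its input. Centred on the group means over 19921 genes, a RIP library had an r of 0.839 to 0.886 with its own input. With another line's input r was at most -0.046, and the centring itself pushes these values below 0. A high r with the own input reflects the shared cell line and does not test the shared lysate. The interaction term assumes that the single Hep3B pair varies like the others. Fits were also run on simulated data, where the interaction term missed most of the planted changes. The absence of calls with that term therefore does not show that the ratios are equal. Within a line there is no test. Alternatives used no block, DESeq2 1.42.0, limma 3.58.1 on log2 FPKM with 1 or 0.1 added, other minimums and pseudocounts, other units, and left out each pair.

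The members and lists were chosen with earlier results of these data known. Of 233 listed symbols 232 matched, and CFB had more than 1 entry, of which the one with the highest mean was used. Of the other lists, the 3 most abundant genes in the Hep3B input and up to 3 called in each direction are named, together with selected transcription factors and the 5 genes of most like pattern. A few genes that this rule or the marker lists name are not reported here. Python 3.11.15 with pandas 2.3.3, NumPy 2.4.6, SciPy 1.17.1, and matplotlib 3.10.9 was used.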

Additional observations from a re-analysis of the deposited data

Results flagged for a closer look

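The log2 ratio of APOB in Hep3B cells, 1.95 on the FPKM + 1 scale, stood apart from its ratios in the other 3 lines, 0.23 in HCT116, 0.00 in DU145, and -0.01 in SW1990. The gap to the nearest of them was 0.875 of the whole range, above the 95% critical value for 4 values. All 10 genes were examined in this way, and chance marks about 1 in 20 such groups. APOB had 17 and 80 fragments in HCT116 and at most 1 in each DU145 and SW1990 library. Its ratio in these lines is therefore near 0 on this scale at any relative change. On the TMM-normalized CPM + 1 scale its ratio was higher in HCT116 (1.32) than in Hep3B (0.94). The mark thus depends on the scale and does not show that the lines differ.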

How the results depend on the processing

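The finding that all 10 genes were at least 10-fold higher in the Hep3B input stayed within 1.5 times under every alternative run. Of 49 alternative values for counts and medians, 39 were the same by the rules used, 8 moved, and 2 reversed, and of 184 values for single genes, 168 were the same. The median Hep3B ratio of 0.21 reversed to -0.14 on TMM-normalized CPM and to -0.38 on fragments per 1000000 without TMM, a setting added after seeing the data. The count of 3 genes called higher became 0 without the replicate block, 1 with limma on log2(FPKM + 1), and 1 on log2(FPKM + 0.1), and ranged from 1 to 4 with a pair left out (1 without Hep3B, 2 without HCT116, 4 without SW1990). DESeq2 called 2. The count of 0 called lower became 1 (FGB) without a minimum on counts, and ranged from 0 to 1 with a pair left out. For the Hep3B ratio against the others, 0 called lower became 2 without a minimum on counts (AFP -6.43, FGG -4.06), and ranged from 0 to 1 with a pair left out (FGB without DU145, -8.43, adjusted p = 0.0331). The causes of these changes were not tested. APOB was no longer called without the block, with DESeq2, with limma on either scale, or without the Hep3B or HCT116 pair. APOA1 was lost without the block and with limma on either scale, and SERPINA1 without the block alone. Over all genes, the block raised the calls from 1427 higher and 1344 lower to 5282 and 4960. Depth limits every statement on the 10 genes outside Hep3B except SERPINA1, since a library of this depth shows 3 fragments as 0.0553 to 0.0866 per 1000000.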
